A study of Homo sapiens with 2 samples.

Results

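The mRNAs of the hnRNP, SR and numbered DDX and DHX helicase families were examined in the YB-1 PAR-CLIP clusters of HEK293T cells (wild type), which derive from human embryonic kidney. A gene was a member when GENCODE release 44 lists it as protein-coding and its symbol starts with HNRNP, or with SRSF, DDX or DHX followed by a number. This gave 93 of 20033 nuclear protein-coding genes, with 27 hnRNP, 12 SR, 38 DDX and 16 DHX genes. Cytoplasmic RNA was studied in 2 replicates of 1 condition, Rep.A and Rep.B, with no control library. Both received 4-thiouridine (100 µM, 16 h) and irradiation at 365 nm, which crosslinks the labelled RNA to bound protein and makes the crosslinked base read as C in place of T. RNase T1, an enzyme that cuts RNA 3′ of G, shortened the fragments, and an antibody against YB-1 recovered them. The clusters, short stretches of genome covered by reads with T-to-C transitions, were called in each replicate on its own, and the deposited tables hold 1382 for Rep.A and 2011 for Rep.B. The study's methods call the replicates independent, but neither the methods nor the labels say whether the replicates came from separate cultures.

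YB-1 is a cold shock domain protein that coats mRNA in the cytoplasm and takes part in translation, mRNA stability and splicing. The hnRNP proteins package nascent transcripts and steer splicing, export and translation. SR proteins bind exonic enhancers and recruit the spliceosome, often in opposition to hnRNP proteins. DEAD-box (DDX) and DEAH-box (DHX) proteins use ATP to remodel RNA and RNA-protein complexes in splicing, ribosome assembly and translation. Many of these proteins meet YB-1 in mRNPs. The present data, however, concern the mRNAs that encode them.

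Of the exonic clusters of nuclear protein-coding genes, the member genes held 8 of 735 in Rep.A and 9 of 942 in Rep.B. A cluster is called reproducible when a cluster of the other replicate overlaps it, by 1 base or more, on the same strand. Reproducible clusters lay in exons of HNRNPUL1, HNRNPK, HNRNPC, SRSF1 and DHX16. Clusters of 1 replicate alone lay in HNRNPDL (Rep.A), DDX56 (Rep.B) and DDX17, whose clusters in Rep.A and Rep.B were far apart. HNRNPK held a further cluster in Rep.B alone. The remaining 85 members had no exonic cluster in either table, among them HNRNPA1, HNRNPA2B1, HNRNPU, SRSF3, DDX3X, DDX5 and DHX9.

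The sequences of the reproducible clusters are shown first. A and C make up most of their bases, as they do over all exonic clusters of nuclear protein-coding genes. They are written 5′ to 3′ on the transcribed strand, in DNA letters, with capitals where CATC or CACC, motifs known for YB-1, occurs. Positions are on hg38.
HNRNPUL1, first cluster (chr19:41304032-41304053, plus strand): ataacaacaactccaacaacag
HNRNPUL1, second cluster (chr19:41304062-41304084, plus strand): acaaccgggctccccagcaacag
HNRNPK (chr9:83972952-83972972, minus strand): aacactcaaacCACCATCaag
HNRNPC, Rep.A (chr14:21234194-21234215, minus strand): agaaaccttacCATCaaacacg
SRSF1 (chr17:58005242-58005260, minus strand): aaCATCtacattcccttcg
DHX16 (chr6:30655529-30655550, minus strand): tcaacaactcCATCttctaccg
The motifs were read on the transcribed strand alone. One or both occurred in 4 of the 6 regions (66.7%, 95% Wilson interval 30 to 90.3%), beside 70.5% of 624 reproducible regions in exons of all nuclear protein-coding genes. The motifs share letters in HNRNPK. The HNRNPUL1 clusters hold neither. All 6 end in G.

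The clusters seen in 1 replicate are shown for comparison.
HNRNPK, Rep.B (chr9:83971888-83971908, minus strand): tcctcCACCACCACCACCtag
HNRNPDL, Rep.A (chr4:82429401-82429421, minus strand): taaatccagctccatacaacg
DDX17, Rep.A (chr22:38483891-38483916, minus strand): aattccaaacctcaaaaactattatg
DDX17, Rep.B (chr22:38494668-38494688, minus strand): gccaaccacaaCATCctccag
DDX56, Rep.B (chr7:44572947-44572967, minus strand): tcagcagctggctacctactg
The 2 DDX17 clusters lie in different exons, and only the one of Rep.B holds CATC.

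**Figure D1:**
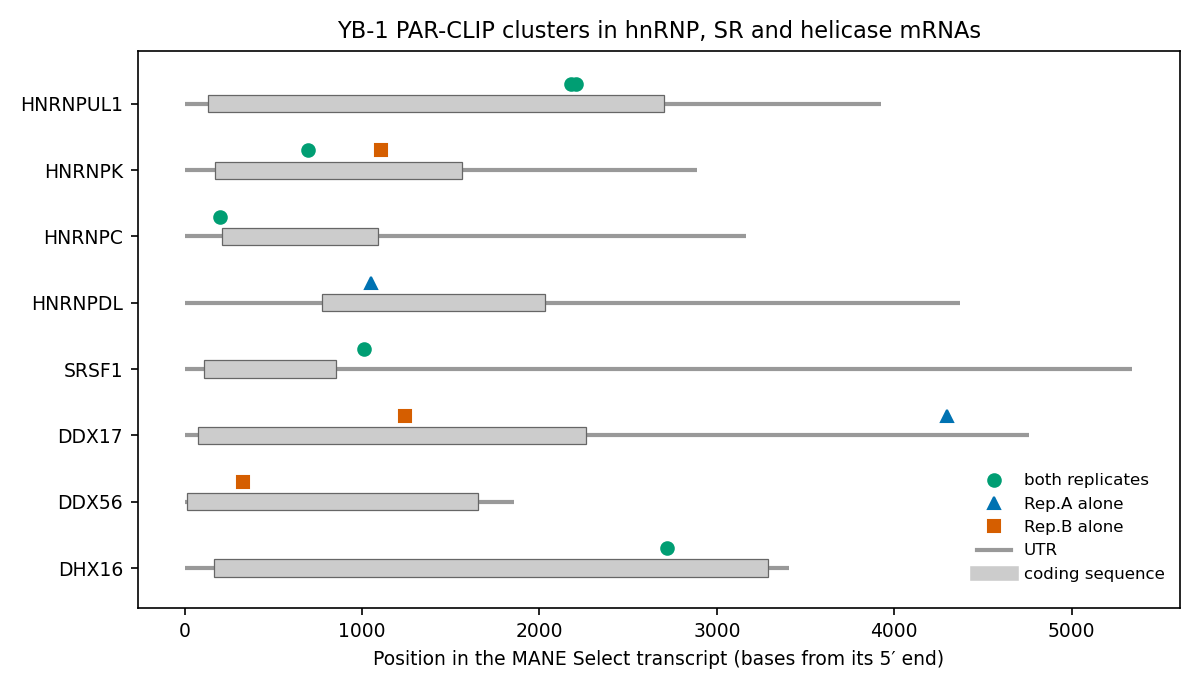
Positions of the clusters in the MANE Select transcript (the agreed reference transcript) of the 8 member genes with a cluster, drawn to scale in bases from the 5′ end. Boxes are coding sequence and lines are UTRs. Circles mark clusters in both replicates, triangles Rep.A alone and squares Rep.B alone. Reproducible clusters lie in coding sequence in HNRNPUL1, HNRNPK and DHX16, at the end of the 5′ UTR in HNRNPC and in the 3′ UTR in SRSF1.

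By family, 3 of 27 hnRNP genes had a reproducible cluster (11.1%, 95% Wilson interval 3.85 to 28.1%). The share was 1 of 12 in the SR genes (8.33%, 1.49 to 35.4%) and 1 of 16 in the DHX genes (6.25%, 1.11 to 28.3%). None of the 38 DDX genes had one, which allows a share of up to 9.18%. Over the 93 members the count was 5 (5.38%, 2.32 to 12.0%), beside a background of 2.82% of all nuclear protein-coding genes. A cluster in either replicate was found in 8 members (8.6%), beside 4.39% of all. The interval of the 93 members includes the background. It lies above the background among clusters at or above the median relative log odds of their table (4.3%, 1.69 to 10.5%, beside 1.24%). It also does so in Rep.A taken alone (7.53%, 3.69 to 14.7%, beside 3.23%). The relative log odds score the evidence for crosslinking per T base. Member clusters held few T bases (median 3.5 in Rep.A and 3 in Rep.B, beside 5), and whether this raised their share was not tested. The intervals of the SR, DDX and DHX families include 2.82%. That of the hnRNP family lies above it, on 3 genes. Among clusters whose sequence occurs once in the genome, which leaves out HNRNPK, the hnRNP share was 2 of 27 (7.41%, 2.06 to 23.4%), and its interval includes the matching background of 2.15%. In Rep.B taken alone it also includes the background (11.1%, 3.85 to 28.1%, beside 4.01%). Genes with abundant mRNA and genes whose mRNA is bound more often cannot be told apart, since the tables hold no mRNA levels. A gene with no cluster is therefore a gene with none called, not one that YB-1 left unbound.

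Genes of the same pathways with other symbols were counted the same way. Of 15 hnRNP proteins with other symbols, 3 had a reproducible cluster (20%, 7.05 to 45.2%). These were KHSRP, a KH-domain protein of mRNA decay, PCBP1, a poly(C)-binding protein, and RBMX, which encodes hnRNP G. The RBMX cluster had 5.95 reads per base in Rep.A and 5.86 in Rep.B, in a sequence found at 3 places in the genome. The weaker KHSRP cluster has a sequence found at 2 places. Of 30 other splicing factors, 7 had one (23.3%, 11.8 to 40.9%), and 3 more (EFTUD2, SON and TRA2A) had clusters that did not overlap between the replicates or were in 1 of them. The 7 were PRPF8, SF1, SF3B1, SNRPB, SNRPC, SRRM1 and SRRM2. SF1 had 3.4 reads per base in Rep.A and 25.7 in Rep.B. The SRRM1 cluster with 17.4 and 29.6 reads has a sequence found at 2 places. PRPF8 is the core scaffold of the spliceosome and SF3B1 recognises the branch site with the U2 snRNP. Of 13 RNA helicases with other symbols, 3 had one (23.1%, 8.18 to 50.3%). Among them were EIF4A1, the helicase that unwinds 5′ UTRs in translation initiation, and SNRNP200, which unwinds U4/U6 in the spliceosome. SNRNP200 had 20.7 reads per base in Rep.A and 47.0 in Rep.B. EIF4A1 had 27.0 and 36.0 in a sequence found at 5 places in the genome. The strongest of 3 PRPF8 clusters had 35.4 and 62.5. These lists were chosen with earlier results of these data known, and their shares are descriptions.

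**Figure D2:**
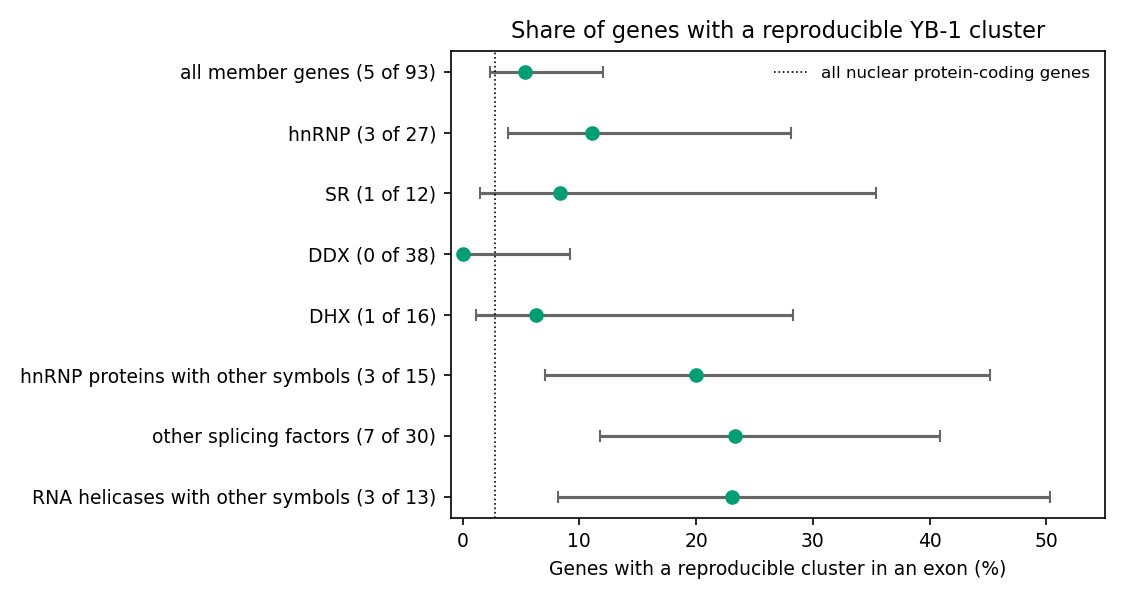
Percent of genes with a reproducible cluster in an exon, for the member genes, their 4 families and 3 lists of related genes, with the counts beside each name. Points are shares, bars are 95% Wilson intervals and the dotted line is the 2.82% of all nuclear protein-coding genes. The DDX genes stand at 0 of 38, and the hnRNP genes at 3 of 27.

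Coverage, the mean number of reads per base of a cluster, is deposited without scaling for depth, and the study lists more mapped reads for Rep.B. Each value is therefore also placed as a percentile of the exonic clusters of nuclear protein-coding genes in its own replicate. HNRNPUL1 encodes a SAF-A-related hnRNP protein of transcription and the DNA damage response. Its first cluster had 154 reads per base in Rep.A and 365 in Rep.B. This was the highest coverage of all 735 exonic clusters in Rep.A and of all 942 in Rep.B, where the next lower values were 151 and 360. In the whole tables, which also hold clusters outside these exons, it ranked at 69 of 1382 and 81 of 2011. The second HNRNPUL1 cluster begins after a gap of 8 bases and had 38.5 and 115 reads, at percentiles 96.9 and 97.2. Both lie in exon 13 of 15 of ENST00000392006.8, in coding sequence, about 79.1 and 80.3% of the way along it. In 8 of the 9 transcripts with a coding sequence that hold them they are coding, and in 1 they are 3′ UTR.

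HNRNPK encodes a KH-domain protein that binds C-rich RNA and acts in transcription, splicing and translational control. Its reproducible cluster lies in exon 10 of 17, 516 bases after the first base of the start codon. It had 29 reads per base in Rep.A and 62.8 in Rep.B, at percentiles 90.1 and 86.4. The cluster of Rep.B alone, in exon 11, had 30 reads (percentile 45.2). Both are coding in 26 of 28 transcripts with a coding sequence, and in 2 they are 3′ UTR. The reproducible cluster also lies antisense to the lncRNA HNRNPK-AS1.

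HNRNPC encodes a nuclear protein that binds U-rich tracts and keeps cryptic exons out of mRNA. Its cluster had 23.9 reads over 22 bases in Rep.A and 41.0 over 20 bases in Rep.B, at percentiles 84.9 and 66.3. It ended at the base just before the start codon, in all 24 transcripts with a coding sequence that hold it. The Rep.A cluster and the start codon, in capitals, read as follows.
HNRNPC (chr14:21234191-21234215, minus strand): agaaaccttaccatcaaacacgATG
Only 11 of 624 reproducible regions in exons of nuclear protein-coding genes lay in a 5′ UTR (1.76%), and the other 10 lay between 1 and 462 bases from the coding sequence. HNRNPC was the only one of the 11 with no base between. The last base of the cluster is the G that precedes ATG, and 95.8% of the exonic clusters of nuclear protein-coding genes in Rep.A and 95.4% in Rep.B end in G. Over the whole tables the shares were 83.1 and 77.7%.

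SRSF1 encodes the SR protein SF2/ASF, a splicing activator that also shuttles to the cytoplasm. In Rep.A its cluster had 12.0 reads and in Rep.B 40, at percentiles 46.0 and 64.9. It lies in the last exon, exon 4 of 4 of ENST00000258962.5, 149 bases downstream of the coding sequence in a 3′ UTR of 4490 bases. All 4 transcripts with a coding sequence that hold it place it in the 3′ UTR. The transcript of the longest coding sequence, ENST00000584773.5, does not contain the cluster, so the rule based on that transcript counts it as an exon of another transcript. An exon of a further protein-coding gene, ENSG00000266086, overlaps it on the same strand, and the 2 cannot be told apart. No other SR gene had an exonic cluster. SRSF9 had a reproducible cluster on the opposite strand of its span, with 28.6 and 64.4 reads, which lies in an exon of GATC.

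DHX16 encodes a DEAH-box ATPase that activates the spliceosome before the first catalytic step. Its cluster had the lowest coverage of the reproducible ones, 5.0 reads in Rep.A (percentile 11.8) and 32.0 in Rep.B (percentile 48.9). It lies in exon 17 of 20, 2545 bases after the first base of the start codon, at 81.5% of the coding sequence. No other DHX gene had an exonic cluster in its sense direction.

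**Figure D3:**
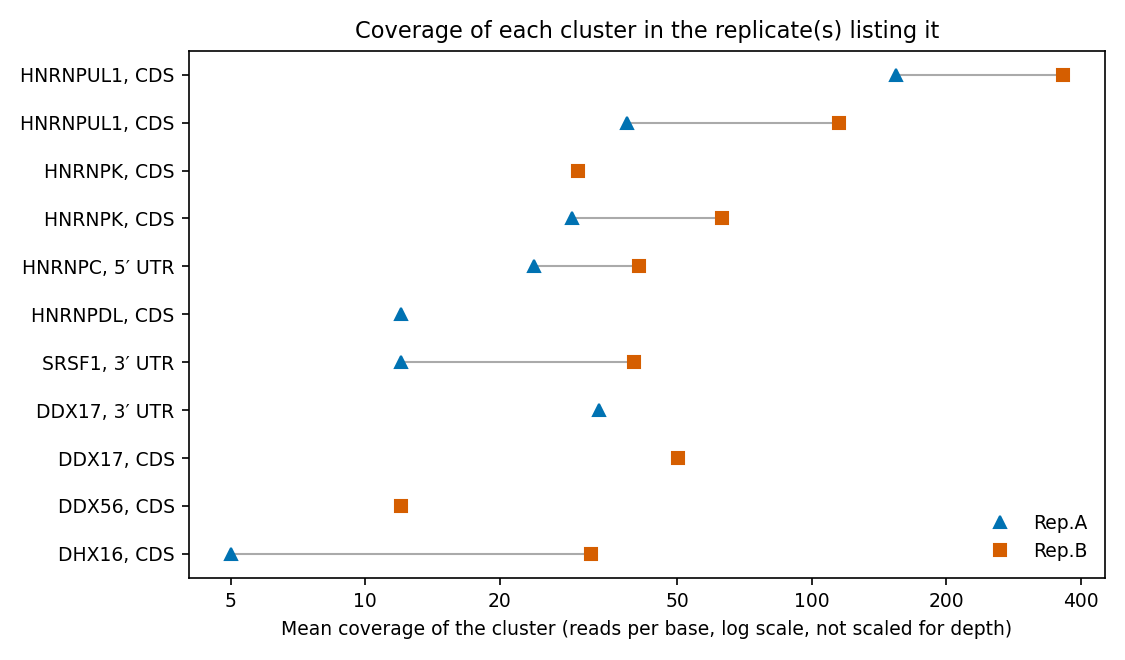
Mean coverage in reads per base (log scale, not scaled for depth) of each cluster in the 8 member genes, with Rep.A as triangles and Rep.B as squares. A line joins clusters that overlap in both replicates. The first HNRNPUL1 cluster, at 154 and 365 reads, stands above the rest, and DHX16, at 5.0 and 32.0, has the longest line.

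Rep.B was higher in 6 of 6 overlapping pairs, as it was in most of the 627 pairs of all nuclear protein-coding genes. The ratio of Rep.B to Rep.A was 1.71 in HNRNPC, 2.17 in HNRNPK, 2.37 and 2.98 in HNRNPUL1, 3.33 in SRSF1 and 6.4 in DHX16. On the log2 scale the difference of Rep.B minus Rep.A had a median of 1.41 (SD 0.66, 6 pairs, range 0.78 to 2.68). Over the 627 pairs of all nuclear protein-coding genes the median was 1.42 (SD 0.79), well within the members' spread of it. DHX16 was at percentile 98.1 of these differences. With 1 library a replicate and no scaling for depth, no test of these differences was made, and the depth of the libraries and binding cannot be told apart in them. The SD over all pairs includes 3 pairs with a cluster over 60 bases.

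**Figure D4:**
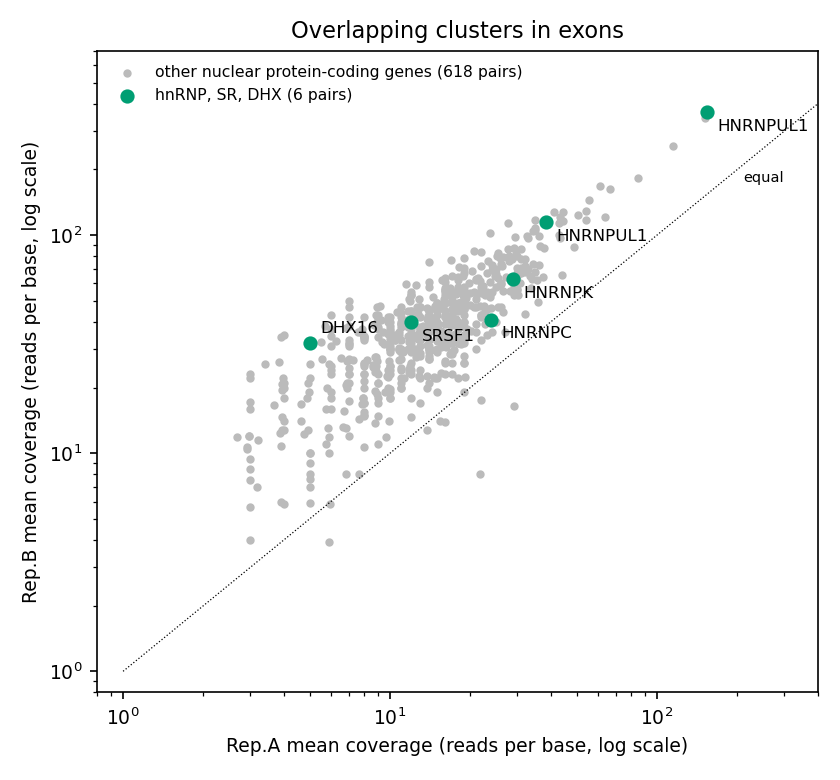
Mean coverage in Rep.A and Rep.B (reads per base, both axes log) of overlapping clusters in exons. Green points are the 6 pairs of HNRNPUL1 (2 pairs), HNRNPK, HNRNPC, SRSF1 and DHX16, grey points are other nuclear protein-coding genes, and the dotted line marks equal coverage. All 6 green points lie above the line, as do most grey points, with DHX16 at the low end of Rep.A. 3 of 627 pairs fall outside the axes.

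Clusters listed in 1 table alone ranged from low to high coverage. The DDX17 cluster of Rep.A lay in the last exon, 13 of 13, 2022 bases past the coding sequence, with 33.3 reads (percentile 94.1). The DDX17 cluster of Rep.B lay in the coding sequence in exon 8, with 50.2 reads (percentile 77.8). DDX17 encodes a DEAD-box helicase of splicing and microRNA processing. DDX56, which encodes a helicase of ribosome assembly, had 12.0 reads in coding exon 3 of 14 (percentile 12.8). HNRNPDL, which encodes an AU-rich element binding protein, had 12.0 reads in exon 1 of 8 (percentile 46.0). That stretch is coding in 4 of 7 transcripts and 5′ UTR in the other 3. An intronic cluster of DDX46 in Rep.B had 28.0 reads, and DHX8 had an antisense cluster of 3.0 reads in Rep.A.

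In all, 6 of 8 member clusters of Rep.A were found in Rep.B (75%, 40.9 to 92.9%), beside 85.3% for all nuclear protein-coding genes. Among clusters at or above the median relative log odds it was 5 of 7 (71.4%) beside 64.9%, the other order. The interval of 40.9 to 92.9% includes both 85.3 and 64.9%. Of the member clusters of Rep.B, 6 of 9 were found in Rep.A (66.7%, 35.4 to 87.9%), beside 66.6%. Of the 6 reproducible regions, 4 lay in coding sequence (66.7%, 30 to 90.3%), beside 57.4% of 624 for all. The median coverage of member clusters was 26.4 (Rep.A) and 41.0 reads (Rep.B), beside 13.1 and 33 for all.

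The clusters were poor in T, the base at which crosslinks are read. Each had a median of 3.5 T bases in Rep.A and 3 in Rep.B, beside 5 for all exonic clusters. T made up 17.6% of member bases in Rep.A and 15.8% in Rep.B, beside 25 and 24.2%. A made up 39.8 and 34.2%, beside 28.4 and 28.2%. C made up 34.7 and 40.5%, beside 38.9 and 39.1%, so it was lower in members in Rep.A and slightly higher in Rep.B. The members' bases include both HNRNPUL1 clusters, whose T bases number 2 and 1. Not every cluster was poor in T, as SRSF1 and DHX16 had 6 T bases each and DDX17 of Rep.A had 7. The crosslinking efficiency, the T positions with called transitions over all T bases of a cluster, had a median of 0.415 in Rep.A and 0.5 in Rep.B, beside 0.2 in both. As a ratio to the T bases, it takes few values where T is scarce.

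In the second HNRNPUL1 cluster the only T is the crosslinked base in both replicates, so its place is known. It is given in capitals.
HNRNPUL1, second cluster: acaaccgggcTccccagcaacag
In HNRNPK both T bases had transitions in Rep.B and 1 of 2 in Rep.A. They are given in capitals.
HNRNPK: aacacTcaaaccaccaTcaag
The T bases with transitions were 2 of 3 in HNRNPC and 2 of 6 in DHX16 in both replicates. They were 1 of 2 in the first HNRNPUL1 cluster and 1 of 6 in SRSF1, again in both. The table does not say which T was read as C in these. The relative log odds, a score of the evidence for crosslinking per T base, varied among the clusters. In Rep.A, HNRNPC, HNRNPK and the first HNRNPUL1 cluster were at percentiles 97.0, 97.7 and 98.2. The second HNRNPUL1 cluster, DHX16 and SRSF1 were at 87.3, 77.6 and 64.9. In Rep.B the reproducible clusters ran from 35.6 (SRSF1) to 98.6 (second HNRNPUL1). The DDX17 cluster of Rep.A was at percentile 2.18, with a score of -0.0028. The other clusters of 1 replicate were at 91.6 (HNRNPDL), 89.6 (DDX17, Rep.B), 76.0 (DDX56) and 8.81 (HNRNPK, Rep.B).

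HNRNPK was the member whose exact cluster sequences occur at several places. The sequence of the reproducible HNRNPK cluster occurs exactly at 2 places in the genome. The other is the processed pseudogene HNRNPKP4 (chr3:96350070-96350090, plus strand). There Rep.B had a cluster of 119 reads, above the 62.8 at HNRNPK, and Rep.A had none, beside 29 at HNRNPK. The cluster of HNRNPK in Rep.B alone occurs at 3 places. These are HNRNPK (30 reads), the pseudogene HNRNPKP1 (chr5:127511904-127511924, minus strand, 13.0 reads) and a lncRNA, ENSG00000288077, with no cluster. HNRNPK and these copies cannot be told apart by the cluster sequences. Whole reads were not compared. The study's methods list aligner settings that bear on reads with several matches, but the clusters do not show which reads were placed that way. Of the other member clusters, all had 1 exact copy in the genome, and near copies with mismatches were not searched.

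The sequences of all clusters outside the member genes were then searched in the members' spliced transcripts, a search chosen after the data were seen. It found 4 clusters, and all 4 were of HNRNPK. Besides the copies above, the reproducible cluster of HNRNPKP1 matched HNRNPK mRNA across the junction of exons 8 and 9, with 5 bases before the junction and 16 after.
HNRNPKP1 (chr5:127512423-127512443, minus strand): taaattaccaacactataaag
Coverage there was 19.8 (Rep.A) and 34.3 reads per base (Rep.B). The sequence occurs once in the genome, in HNRNPKP1, and in 20 HNRNPK transcripts after splicing, at bases 568 to 588 of ENST00000376263.8, within the coding sequence. The HNRNPK gene itself holds no unbroken copy, and the aligner used does not join exons.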

How the data were processed

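YB-1 PAR-CLIP was analysed in 2 replicates of wild-type HEK293T cells. Per the labels, the authors used cutadapt 2.10 and Bowtie 1.0.0 with hg38, and per the study's methods called clusters with wavClusteR in each replicate. The mean coverage deposited for each cluster is a signal (reads per base) with no scaling to library size. The authors gave whole-number counts of T-to-C transitions and T bases, crosslinking efficiency as a fraction, and log odds as a score. Read totals are not in the tables, so depth was not used, and intervals cover counting error only.

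Here clusters were joined to exons of GENCODE release 44 on the same strand (overlap of at least 1 base). Regions were taken from the transcript with the longest coding sequence, or from MANE Select where named. The sequences of all 3393 clusters matched hg38. Cluster sequences of 18 to 100 bases were searched for exact copies on both strands. Base composition, median coverage and regions leave out clusters over 60 bases, and the coverage differences keep them. Shares have 95% Wilson intervals. The overlap code was tested on simulated data. With 1 condition and no control, no test between conditions was possible. All members with a cluster were named. Genes of the related lists with a reproducible cluster were named too, with some not reported here. The members and lists were chosen with earlier results of these data known. Python 3.11.15, numpy 2.4.6, pandas 2.3.3 and matplotlib 3.10.9 were used.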

Additional observations from a re-analysis of the deposited data

Results flagged for a closer look

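The pseudogene HNRNPKP1 lies outside the member genes and was not part of the comparisons. Its reproducible cluster had 19.8 reads per base in Rep.A and 34.3 in Rep.B, with transitions at 1 of 5 T bases. It drew attention because signal appeared in both replicates at a gene that no comparison used, and its 21 bases match spliced HNRNPK mRNA. Whether these reads came from HNRNPK or from HNRNPKP1 was not tested.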

How the results depend on the processing

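For the members, all 28 recomputed values stayed within 1.5 times of the count, or within the main interval or 1 SD. The count of 5 genes became 4 with clusters at or above the median relative log odds (without SRSF1; 248 of all genes, from 565), with a coverage of at least 10 reads (without DHX16; 421 of all) and with sequences found once in the genome (without HNRNPK; 430 of all). It was 5 with introns included or with a reciprocal overlap of 50%. Without replicate A or without replicate B, 7 genes had a cluster in the table left, 7 in each, beside 803 and 647 of all. The interval of the members' share lay above that of all genes at the median log odds and without replicate B, and that of the hnRNP genes included it for sequences found once and without replicate A. The coding share ranged from 60 to 80.0%, the share of Rep.A clusters found in Rep.B from 71.4 to 75% (beside 64.9 to 90.9% for all), the median log2 difference from 1.25 to 1.57 and the motif share from 50.0 to 66.7%. With 5 to 9 clusters, 1 cluster moves each share by over 10 percentage points. No paired analysis was possible because there was 1 condition.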
